A study of Mus musculus with 18 samples.

Results

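The genes described here are 38 genes of the mouse autophagy machinery, out of the 48023 genes in the count table. They were chosen by name, as the core genes that start, build, and load an autophagosome, and each symbol matched 1 row of the table through the GENCODE annotation of GRCm38. Expression was measured by RNA-seq of total RNA from brown preadipocytes, undifferentiated precursors of brown fat cells, of a mouse line made from the stromal vascular fraction of brown fat and immortalized with SV40 T antigen. The cells were given vehicle or FGF6, a paracrine fibroblast growth factor, at 200 ng/ml, and were collected after 4, 8, or 24 h. Each of the 6 combinations of treatment and time was sequenced as 3 libraries, 18 in all. Strain, genotype, and the composition of the vehicle are not given in the sources used here, and the cells are 1 immortalized line. Nothing in the labels says that the 3 libraries of a group came from separate cultures, so p-values measure only the spread between these libraries, which may be technical.

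Autophagy encloses cytoplasm, protein aggregates, or whole organelles in a double membrane and delivers them to the lysosome. The ULK kinase complex starts the process, a class III phosphatidylinositol 3-kinase (PI3K) complex marks the site with the lipid PI3P, and PI3P-binding proteins and lipid carriers extend the membrane. Conjugating enzymes then attach small ubiquitin-like proteins of the ATG8 family (LC3 and GABARAP) to the membrane, and receptors bind both cargo and ATG8 proteins. In fat cells the pathway is known for its role in differentiation and, in brown and beige fat, for the removal of mitochondria (mitophagy).

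Library totals lay between 24327816 and 33471980 counts, and expression is given as CPM, the counts scaled to a common library total. Of the 38 autophagy genes, 37 had enough counts for a test. The exception was Atg2a, a lipid transfer protein, which was listed at 0 counts in all 18 libraries. Whether this 0 reflects the cells or the annotation and counting behind the table could not be settled from the files. The preadipocyte markers Pdgfra, Pdgfrb, and Ly6a were present in every library, and Dlk1 was at 0 in all of them. Replicate 3 of vehicle at 24 h stood apart from its group, with a chi-square per degree of freedom over genes of 35.7 and 39.2 against the other two, where all other pairs within groups had 2.37 to 7.35. The summed level of the 5 preadipocyte markers, carried by Pdgfrb, Pdgfra, and Ly6a, was 1051.8 to 1264.2 CPM over the vehicle libraries and was lower with FGF6, at 827.2 to 869.6 CPM at 4 h, 673.5 to 740.7 at 8 h, and 294.9 to 307.3 at 24 h. Cd34, of the same list, went the other way, called higher at 8 h (log2 0.46) and at 24 h (log2 1.38). Sums of the 5 markers of mature adipocytes were 4.69 to 6.13 CPM in vehicle and 0.037 to 1.15 CPM with FGF6, with Lep at 0 throughout. The vehicle sum came mostly from Cidec and Plin1, both called lower with FGF6 at each time. Adipoq was not called at 4 h (log2 0.07) and was lower at 8 and 24 h, and Cfd was at or near 0. The endothelial sum was higher with FGF6 at each time, at 0.841 to 1.23 CPM in vehicle and 3.74 to 5.73 CPM with FGF6 at 24 h, where Cdh5 was 2.90 to 4.16 CPM with FGF6 and at most 0.090 CPM in vehicle. The myoblast sum was lower with FGF6 at each time, at 5.75 to 6.73 CPM in vehicle and 1.6 to 2.12 CPM with FGF6 at 24 h, with Myf5 at 0 throughout. The 5 macrophage and leukocyte markers summed to 17.7 to 18.5 CPM with FGF6 and 14.3 to 15.2 CPM in vehicle at 4 h, and to 3.35 to 3.96 and 6.48 to 7.96 CPM at 24 h, nearly all of it from Cd68 and Csf1r. With FGF6, Cd68 was called higher at 4 h (log2 0.58) and 8 h (0.26) and lower at 24 h (-0.85). Csf1r was called lower at each time (-1.38, -1.81, and -1.77). The 5 brown lineage markers summed to between 44.1 and 63.4 CPM, most of it from Ebf2, while Zic1 and Lhx8 were at or near 0. With FGF6, Prdm16 was called higher at each time (log2 0.46, 0.54, and 0.59). Ebf2 was not called at 4 h and was lower at 8 h (-0.50) and 24 h (-0.38). Epsti1, at no more than 1.11 CPM, was called higher at 24 h (0.83). The part of these marker differences in the results that follow was not tested, and in bulk RNA fewer cells of a kind and less RNA per cell cannot be told apart.

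Most autophagy genes were lower in FGF6-treated cells than in vehicle-treated cells, at each time. A gene was called where edgeR's quasi-likelihood p-value, adjusted by the Benjamini-Hochberg method over all 15071 genes tested, was under 0.05. At 4 h, 25 of 37 autophagy genes were called, where 62.8% of all genes were, with 2 higher (all genes, 28.6%) and 23 lower (all genes, 34.2%). At 8 h, 33 were called against 70.8% of all genes, 4 higher (all genes, 32.4%) and 29 lower (all genes, 38.4%). At 24 h, 34 were called against 73.8% of all genes, 8 higher (all genes, 35.9%) and 26 lower (all genes, 37.9%). Without replicate 3 of vehicle at 24 h, 31 were called at 24 h, 8 higher and 23 lower (all genes, 36.8% and 34.2%), and Ulk1 (-0.14, adjusted p = 0.057), Atg2b (-0.05, adjusted p = 0.37), and Nbr1 (-0.08, adjusted p = 0.0681) lost the call in edgeR's test. At 4 h calls were thus about as frequent as among all genes, and at every time the lower calls outnumbered the higher ones.

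The sizes were moderate. The median log2 fold change (FGF6 minus vehicle) of the 37 genes was -0.24 at 4 h, -0.29 at 8 h, and -0.40 at 24 h, beside -0.05, -0.05, and -0.02 for all genes tested. Without replicate 3 of vehicle at 24 h, the 24 h medians were -0.34 and 0.02, and the largest shift of any of the 37 values was 0.13. A fold of at least 1.5 together with the call was reached by 6 lower and 2 higher genes at 4 h, where 13.7% and 9.70% of all genes did so. At 8 h there were 11 lower and 2 higher (all genes, 19.6% and 13.8%), and at 24 h 13 lower and 1 higher (all genes, 23.0% and 15.3%). By this measure decreases outnumbered increases at every time, as they did among all genes, and at 4 h both counts were near the shares of all genes.

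**Figure D1:**
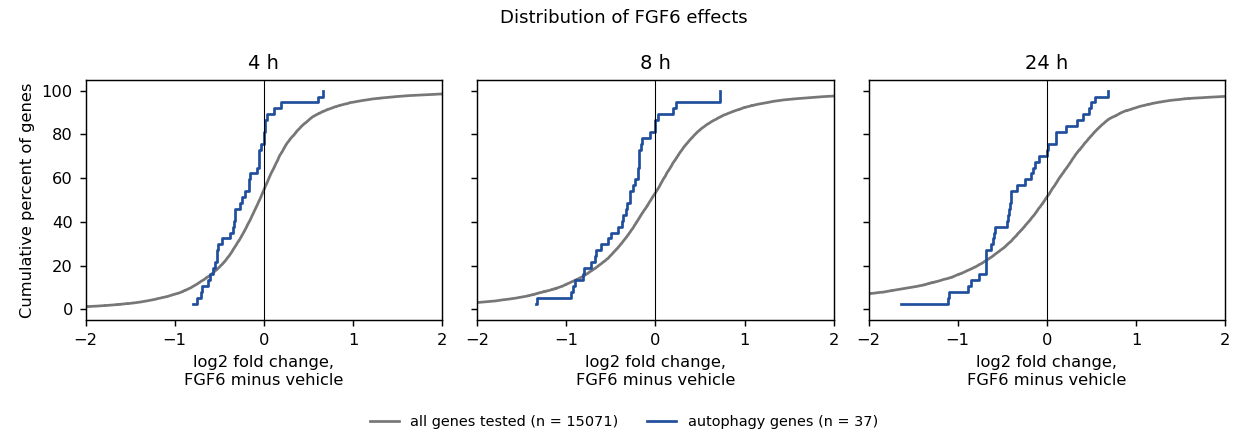
Cumulative percent of genes (vertical axis) against the log2 fold change of FGF6 minus vehicle (horizontal axis, cropped at -2 and 2) at each time, for all 15071 genes tested (grey) and for the 37 autophagy genes tested (blue). The blue curve lies left of the grey one near 0 at all 3 times, with medians of -0.24, -0.29, and -0.40, and does not reach the ends that the grey curve has on both sides.

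Across the 3 times, 20 of the 37 genes were called lower at every time (54.1%, beside 23.0% of all genes tested), and 2 were called higher at every time (5.41%, beside 20.4%). These 2 were Wipi2 and Atg16l1. In 4 genes the direction of the call differed between times (10.8%, beside 8.19%): Atg4c, Tax1bp1, Bnip3, and Bnip3l. Of the 20, Ulk1 and Nbr1 lost the call at 24 h without replicate 3 of vehicle, as given above. The call of Ulk1 was also lost without other single libraries, as given below. Ambra1, a Beclin 1 binding protein, and Atg4b were called at no time. At 4 h the 3 FGF6 libraries lay wholly below the 3 vehicle libraries in 24 of the 37 genes and wholly above in 3, where groups did not overlap in 66.2% of all genes. At 8 h the numbers were 28 and 4 (all genes, 73.8%), and at 24 h 26 and 8 (all genes, 74.8%). The 3 comparisons use different libraries.

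**Figure D2:**
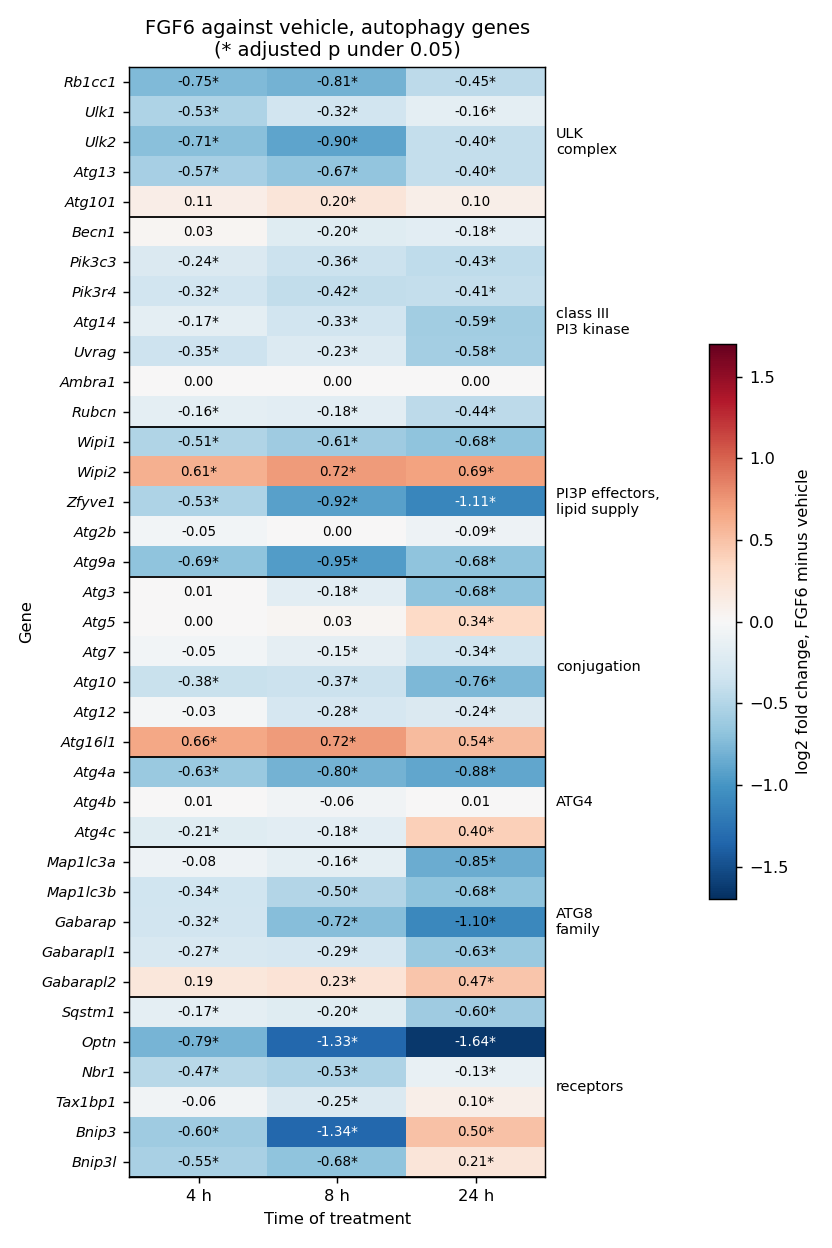
The log2 fold change of FGF6 minus vehicle for the 37 autophagy genes tested (rows, grouped by role) at 4, 8, and 24 h (columns), with blue for lower, red for higher, and an asterisk for an adjusted p under 0.05. Most cells are blue, Wipi2 and Atg16l1 are red throughout, and the row of Bnip3 turns from -1.34 at 8 h to 0.50 at 24 h.

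Gene positions below are in GRCm38, from GENCODE M21. Counts of 13 of the 38 genes may include reads of a neighbor, since their exons overlap those of another gene and the strand setting of the counting is not given in the sources used here. The overlap was largest in Becn1 (3104 of 7065 exonic bases, with Cntd1) and Atg9a (1878 of 5762, with Ankzf1 and Gm29253). The 13 are Rb1cc1, Becn1, Atg14, Uvrag, Rubcn, Atg2b, Atg9a, Map1lc3b, Gabarapl1, Sqstm1, Optn, Tax1bp1, and Bnip3. Without them, 24 were tested, of which 15 were called at 4 h (13 lower), 21 at 8 h (17 lower), and 21 at 24 h (15 lower), where 62.8%, 70.8%, and 73.8% of all genes were called and 34.2%, 38.4%, and 37.9% were lower. At 4 h the share called was close to that of all genes.

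Promoter sequences are shown for 5 genes whose expression followed different courses, so that the letters can be read beside the values. Of the 38 genes, 31 were in the RefSeq promoter table of GRCm38.p6, with 37 start sites. The 250 bases before each start were searched on both strands for the E-box CACGTG, which the transcription factors TFEB and TFE3 can bind. They were also searched for the longer CLEAR element, which is that E-box preceded by GT and followed by AC, the FoxO site GTAAACA, the AP-1 site TGANTCA, the cyclic AMP response element TGACGTCA, the ETS site CCGGAAGT, and the antioxidant element TGACNNNGC. Each stretch below is the longest part of that window outside annotated exons, in GRCm38.p6, written in the direction of transcription, with motif letters in capitals. Bnip3 fell at 4 and 8 h and rose at 24 h, Atg3 fell at 8 and 24 h, Atg5 rose at 24 h, and Optn and Zfyve1 fell at all 3 times.
Bnip3, chr7:138909520-138909756, minus strand: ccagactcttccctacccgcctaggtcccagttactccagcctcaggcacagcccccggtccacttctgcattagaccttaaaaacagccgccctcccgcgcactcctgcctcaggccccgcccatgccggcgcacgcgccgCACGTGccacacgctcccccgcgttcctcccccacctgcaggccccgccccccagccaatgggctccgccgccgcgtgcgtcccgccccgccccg
Atg3, chr16:45158707-45158784, plus strand: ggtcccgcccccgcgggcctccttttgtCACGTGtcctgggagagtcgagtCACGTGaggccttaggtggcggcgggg
Atg5, chr10:44268089-44268338, plus strand: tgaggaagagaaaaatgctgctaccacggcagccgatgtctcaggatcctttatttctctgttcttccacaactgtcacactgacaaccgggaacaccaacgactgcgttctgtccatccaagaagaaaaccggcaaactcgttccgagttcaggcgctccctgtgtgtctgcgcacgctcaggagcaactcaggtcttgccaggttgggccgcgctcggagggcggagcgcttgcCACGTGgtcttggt
Optn, chr2:5064118-5064367, minus strand: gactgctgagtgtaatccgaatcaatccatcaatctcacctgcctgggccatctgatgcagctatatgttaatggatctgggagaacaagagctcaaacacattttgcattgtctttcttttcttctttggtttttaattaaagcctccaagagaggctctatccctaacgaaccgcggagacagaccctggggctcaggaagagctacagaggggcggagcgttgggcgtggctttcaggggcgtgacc
Zfyve1, chr12:83597223-83597472, minus strand: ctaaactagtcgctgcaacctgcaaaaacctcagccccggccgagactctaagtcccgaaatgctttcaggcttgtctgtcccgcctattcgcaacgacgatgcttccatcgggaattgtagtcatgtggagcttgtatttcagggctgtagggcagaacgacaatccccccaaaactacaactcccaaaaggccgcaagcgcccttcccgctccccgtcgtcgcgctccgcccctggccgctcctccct
The E-box stood in 5 of the 37 promoters of autophagy genes (13.5%), those of Rubcn, Atg3, Atg5, Atg7, and Bnip3, and in 6.02% of all 32851 promoters. Atg3 had 2 of them, 94 and 71 bases before the start, while that of Bnip3 lay 108 bases and that of Atg5 14 bases before the start. The E-box of Rubcn lay before a start inside the gene, and the start at the beginning of Rubcn had none. That of Atg7 also lay before a start inside the gene. Among these 5 genes, Atg5 was called higher and Atg3 lower at 24 h, so genes with the same letters differed in direction. The antioxidant element was in 4 promoters (10.8%, all promoters 10.2%), those of Ulk2, Atg13, Tax1bp1, and another start of Zfyve1. The ETS site was in that of Atg101 (2.7%, all promoters 2.88%). The CLEAR element, the FoxO site, the AP-1 site, and the cyclic AMP response element were in none of the 37, and in 0.24%, 3.17%, 6.75%, and 1.55% of all promoters.

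The ULK initiation complex comprises the kinases Ulk1 and Ulk2, the scaffold Rb1cc1 (FIP200), and the adaptors Atg13 and Atg101. At every time, 4 of its 5 genes were lower with FGF6 (all genes, 34.2%, 38.4%, and 37.9%), and the difference was smaller at 24 h than at 4 h in those 4. Atg101 went the other way where it was called, its log2 fold change at 8 h being 0.20 (SE 0.0538, adjusted p = 0.00195) in edgeR's test, beside 0.11 and 0.10 at 4 and 24 h, not called.

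Rb1cc1 (ENSMUSG00000025907, chromosome 1, 6206197 to 6276648) had 45.1, 46.3 and 46.2 CPM in the vehicle libraries at 4 h, 62.2, 63.2 and 65.1 at 8 h, and 63.9, 62.2 and 64.9 at 24 h. With FGF6 it had 29.2, 26.5 and 26.3 CPM at 4 h, 37.6, 35.0 and 35.9 at 8 h, and 47.9, 47.3 and 44.7 at 24 h. Every FGF6 library was below every vehicle library of its time, and the FGF6 libraries at 24 h spanned the values of the vehicle libraries at 4 h. The log2 fold change was -0.75 (SE 0.047, adjusted p = 4.68e-13) at 4 h, -0.81 (SE 0.0447, adjusted p = 1.88e-14) at 8 h, and -0.45 (SE 0.044, adjusted p = 1.23e-09) at 24 h, where SE is the standard error implied by edgeR's F statistic. The effect at 24 h was less negative than that at 4 h by 0.30 (SE 0.0645, adjusted p = 0.000355).

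For Ulk2, the vehicle values were 33.2, 31.7 and 31.0 CPM at 4 h, 45.3, 47.2 and 47.9 at 8 h, and 52.4, 51.1 and 52.0 at 24 h. The FGF6 values were 21.3, 19.0 and 18.3 CPM, 25.1, 25.4 and 24.7, and 38.2, 39.3 and 40.0 at the same times. The groups did not overlap at any time, and all FGF6 libraries at 8 h lay below all vehicle libraries at 4 h. Ulk2 had the most negative value of the complex at 8 h, -0.90 (SE 0.0486, adjusted p = 1.28e-14), after -0.71 (SE 0.0517, adjusted p = 8.42e-12) at 4 h, and its effect at 24 h was -0.40 (SE 0.0464, adjusted p = 1.95e-08). The 24 h effect differed from the 4 h effect by 0.30 (SE 0.0696, adjusted p = 0.000652).

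Vehicle libraries held 55.2, 53.7 and 48.8 CPM of Ulk1 at 4 h, 54.1, 54.4 and 51.0 at 8 h, and 63.6, 61.7 and 60.1 at 24 h. Those with FGF6 held 39.0, 34.5 and 35.8 CPM at 4 h, 39.7, 42.4 and 45.5 at 8 h, and 50.9, 59.0 and 56.1 at 24 h. The gap narrowed with time, and at 24 h the highest FGF6 library was just under the lowest vehicle library. On the log2 scale the effect was -0.53 (SE 0.0605, adjusted p = 3.14e-08) at 4 h, -0.32 (SE 0.0596, adjusted p = 3.08e-05) at 8 h, and -0.16 (SE 0.0582, adjusted p = 0.0165) at 24 h. The call at 24 h was lost in 9 of the 18 fits that left out 1 library, where the value ranged from -0.21 to -0.06, the latter without the lowest FGF6 library (adjusted p = 0.399). These 9 left out any vehicle library at 24 h, any FGF6 library at 4 h, replicate 3 of FGF6 at 8 h, or replicate 1 or 3 of FGF6 at 24 h.

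Atg13 was at 34.2, 32.0 and 30.6 CPM in vehicle at 4 h, 41.9, 42.9 and 44.0 at 8 h, and 47.6, 48.9 and 47.9 at 24 h. Under FGF6 it was at 21.7, 21.8 and 21.7 CPM, 27.6, 26.4 and 26.9, and 35.3, 36.3 and 37.8. No FGF6 library reached a vehicle library of its time. Its log2 fold changes were -0.57 (SE 0.0484, adjusted p = 1.38e-10) at 4 h, -0.67 (SE 0.046, adjusted p = 1.49e-12) at 8 h, and -0.40 (SE 0.0446, adjusted p = 1.18e-08) at 24 h, with a difference between the 24 h and 4 h effects of 0.17 (SE 0.0659, adjusted p = 0.0306).

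The class III PI3K complex holds the lipid kinase Pik3c3 (VPS34), its regulatory subunit Pik3r4, Beclin 1 (Becn1), and the alternative subunits Atg14 and Uvrag, and it is modulated by Ambra1 and by the inhibitor Rubcn (Rubicon). None of its 7 genes was higher at any time. Lower calls numbered 5 at 4 h, 6 at 8 h, and 6 at 24 h (all genes, 34.2%, 38.4%, and 37.9%). A fold of 1.5 was passed by none at 4 and 8 h and by 1 at 24 h (all genes, 13.7%, 19.6%, and 23.0% lower), with medians of -0.17, -0.23, and -0.43. The catalytic subunit Pik3c3 had log2 fold changes of -0.24, -0.36, and -0.43, and Pik3r4 had -0.32, -0.42, and -0.41, all called lower. The inhibitor Rubcn was also lower at each time (-0.16, -0.18, and -0.44), as was Uvrag (-0.35, -0.23, and -0.58), 1589 of whose 9035 exonic bases overlap Gm45187. Ambra1 had 0.00 at all 3 times, with adjusted p between 0.947 and 0.981.

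Atg14, the subunit that directs the kinase to the autophagosome, had 15.6, 17.1 and 16.96 CPM in vehicle at 4 h, 17.9, 18.4 and 18.4 at 8 h, and 23.3, 24.4 and 23.8 at 24 h. The FGF6 libraries had 14.9, 14.2 and 15.0 CPM at 4 h, 13.6, 14.9 and 15.2 at 8 h, and 15.8, 16.7 and 15.0 at 24 h. The FGF6 libraries lay between 13.6 and 16.7 CPM at all times while the vehicle libraries were highest at 24 h, and the groups did not overlap. Relative to vehicle, its log2 fold change was -0.17 (SE 0.0624, adjusted p = 0.0202) at 4 h, -0.33 (SE 0.0617, adjusted p = 4.36e-05) at 8 h, and -0.59 (SE 0.06, adjusted p = 2.19e-09) at 24 h. The call at 4 h was lost in 9 of the alternatives tried, among them DESeq2 (-0.15, adjusted p = 0.0842). In 6 of these a library was left out, which was any FGF6 library at 4 h, replicate 2 or 3 of vehicle at 4 h, or replicate 3 of vehicle at 24 h, with values from -0.16 to -0.12. In vehicle alone Atg14 rose from 8 to 24 h by 0.39 (SE 0.0583, adjusted p = 4.98e-06).

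Becn1 was measured at 66.1, 65.5 and 64.6 CPM in vehicle at 4 h, 65.0, 64.7 and 66.2 at 8 h, and 67.6, 66.4 and 68.5 at 24 h. With FGF6 the values were 64.2, 68.0 and 67.8 CPM, 59.3, 57.1 and 53.6, and 59.9, 61.3 and 58.0. The groups overlapped at 4 h and were apart at 8 and 24 h, where FGF6 was lower. FGF6 against vehicle gave a log2 value of 0.03 (SE 0.0398, adjusted p = 0.576) at 4 h, not called, -0.20 (SE 0.0401, adjusted p = 8.02e-05) at 8 h, and -0.18 (SE 0.0402, adjusted p = 0.00038) at 24 h, and reads of the overlapping Cntd1 could be included.

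Genes that read PI3P or supply lipid went in both directions. Of 5 tested, 3 were lower at 4 and 8 h and 4 at 24 h (all genes, 34.2%, 38.4%, and 37.9%), and Wipi2 was higher at all times. Atg2b, a lipid transfer protein, had -0.05, 0.00, and -0.09, called lower at 24 h only (adjusted p = 0.0441 in edgeR's test), a call lost without replicate 3 of vehicle. The related PI3P-binding proteins Wipi1 and Wipi2 thus differed in direction.

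Wipi1 had 45.9, 37.7 and 41.3 CPM in vehicle at 4 h, 64.3, 62.7 and 63.1 at 8 h, and 94.8, 96.9 and 98.4 at 24 h. In FGF6 it had 29.4, 29.8 and 28.2 CPM at 4 h, 41.3, 41.3 and 42.4 at 8 h, and 62.0, 60.2 and 58.2 at 24 h. Both treatments had their highest libraries at 24 h, with FGF6 below vehicle throughout. The log2 fold change was -0.51 (SE 0.0537, adjusted p = 6.82e-09) at 4 h, -0.61 (SE 0.0505, adjusted p = 7.08e-11) at 8 h, and -0.68 (SE 0.0485, adjusted p = 2.19e-12) at 24 h.

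Wipi2 (ENSMUSG00000029578, chromosome 5, 142627698 to 142670588), which recruits Atg16l1 to the growing membrane, had 108.1, 111.9 and 105.7 CPM in vehicle at 4 h, 99.997, 104.7 and 101.1 at 8 h, and 106.2, 107.4 and 106.2 at 24 h. Its FGF6 libraries had 163.7, 165.2 and 169.1 CPM, 168.3, 170.9 and 163.9, and 175.1, 167.2 and 173.1. All 9 FGF6 libraries were above all 9 vehicle libraries. It rose 1.53-fold at 4 h, 1.65-fold at 8 h, and 1.61-fold at 24 h. In log2 these effects were 0.61 (SE 0.0318, adjusted p = 1.02e-14), 0.72 (SE 0.0319, adjusted p = 2.21e-16), and 0.69 (SE 0.032, adjusted p = 3.96e-16). The effects at 24 and 4 h differed by 0.08 (SE 0.045, adjusted p = 0.162), not called.

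Zfyve1 (ENSMUSG00000042628, chromosome 12, 83546558 to 83597222), whose product DFCP1 marks the omegasome where autophagosomes form, was at 30.2, 35.1 and 33.2 CPM in vehicle at 4 h, 37.9, 39.6 and 38.3 at 8 h, and 55.9, 57.9 and 57.9 at 24 h. With FGF6 it was at 22.2, 21.8 and 24.3 CPM, 20.7, 18.9 and 21.6, and 27.7, 26.4 and 25.5. All 9 FGF6 libraries were below all 9 vehicle libraries, of which those at 24 h were highest. On the log2 scale the effect was -0.53 (SE 0.0587, adjusted p = 1.63e-08) at 4 h, -0.92 (SE 0.0586, adjusted p = 3.22e-13) at 8 h, and -1.11 (SE 0.0557, adjusted p = 1.96e-15) at 24 h, where Zfyve1 was 2.16-fold lower. The effect at 24 h minus that at 4 h was -0.57 (SE 0.0811, adjusted p = 1.45e-06), and vehicle alone rose from 8 to 24 h by 0.57 (SE 0.053, adjusted p = 2.85e-09).

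The scramblase Atg9a, the membrane protein that seeds the autophagosome, had 36.7, 32.7 and 29.3 CPM in vehicle at 4 h, 44.5, 45.7 and 44.7 at 8 h, and 41.9, 45.8 and 42.8 at 24 h. FGF6 libraries had 21.2, 19.1 and 20.9 CPM at 4 h, 23.5, 23.0 and 23.2 at 8 h, and 26.4, 27.5 and 27.6 at 24 h. All FGF6 libraries were below all vehicle libraries, whatever the time. Relative to vehicle, its log2 fold change was -0.69 (SE 0.0636, adjusted p = 6.2e-10) at 4 h, -0.95 (SE 0.0609, adjusted p = 3.68e-13) at 8 h, and -0.68 (SE 0.0604, adjusted p = 1.87e-10) at 24 h, with the overlap of its exons with other genes as given above.

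The conjugation machinery attaches ATG12 to ATG5 and ATG8 proteins to lipid. At 4 h, 2 of its 6 genes were called (all genes, 62.8%), 1 higher and 1 lower, at 8 h 1 was higher and 4 lower (all genes, 70.8% called), and at 24 h 2 were higher and 4 lower (all genes, 73.8% called). The E1-like enzyme Atg7 had log2 fold changes of -0.05, -0.15, and -0.34, and the ubiquitin-like Atg12 had -0.03, -0.28, and -0.24, each called lower at 8 and 24 h. The members of the ATG12-ATG5-ATG16L1 complex therefore did not share a direction at 24 h.

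Atg3, the E2-like enzyme for LC3, had 76.6, 76.6 and 82.9 CPM in vehicle at 4 h, 83.1, 79.7 and 78.0 at 8 h, and 87.9, 85.0 and 88.7 at 24 h. Its FGF6 libraries had 78.3, 81.4 and 78.1 CPM, 71.8, 72.2 and 68.6, and 54.8, 54.5 and 54.4. The groups overlapped at 4 h, were apart at 8 h, and were far apart at 24 h. FGF6 against vehicle gave a log2 value of 0.01 (SE 0.0387, adjusted p = 0.821) at 4 h, not called, -0.18 (SE 0.0389, adjusted p = 0.000228) at 8 h, and -0.68 (SE 0.0397, adjusted p = 4.94e-14) at 24 h. At 4 h it was -0.09 (adjusted p = 0.0406) when library sizes alone set the scale. The difference between the 24 and 4 h effects was -0.69 (SE 0.0555, adjusted p = 1.03e-10).

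Atg5 was at 52.3, 55.2 and 57.0 CPM in vehicle at 4 h, 54.8, 55.5 and 53.5 at 8 h, and 44.9, 47.6 and 51.4 at 24 h. With FGF6 it was at 53.4, 54.9 and 56.4 CPM, 56.5, 55.3 and 55.7, and 63.5, 61.1 and 57.8. At 4 h the ranges coincided, and at 24 h each FGF6 library was above each vehicle library. The log2 fold change was 0.00 (SE 0.0475, adjusted p = 0.976) at 4 h and 0.03 (SE 0.0474, adjusted p = 0.553) at 8 h, neither called, and 0.34 (SE 0.048, adjusted p = 5.03e-07) at 24 h, and the 24 h effect exceeded the 4 h effect by 0.34 (SE 0.0675, adjusted p = 0.000125).

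Atg10, the E2-like enzyme for ATG12, had few counts, with 4.51, 4.88 and 4.31 CPM in vehicle at 4 h, 4.86, 5.85 and 5.72 at 8 h, and 6.59, 6.996 and 8.07 at 24 h. FGF6 gave 3.48, 3.35 and 3.78 CPM, 3.84, 4.81 and 4.07, and 3.87, 4.72 and 4.15. The FGF6 libraries were lower at each time without overlap. On the log2 scale the effect was -0.38 (SE 0.128, adjusted p = 0.0133) at 4 h, -0.37 (SE 0.121, adjusted p = 0.00931) at 8 h, and -0.76 (SE 0.119, adjusted p = 3e-06) at 24 h. The call at 4 h was lost without replicate 2 of vehicle or replicate 1 or 2 of FGF6 (-0.34 to -0.31), and that at 8 h without replicate 1 or 3 of FGF6 (-0.29 and -0.30).

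Atg16l1 (ENSMUSG00000026289, chromosome 1, 87755870 to 87792428), which fixes the site of LC3 conjugation, had 56.7, 59.2 and 55.3 CPM in vehicle at 4 h, 44.1, 48.1 and 44.6 at 8 h, and 37.0, 32.3 and 34.5 at 24 h. The FGF6 libraries had 92.0, 88.9 and 90.0 CPM at 4 h, 73.2, 74.6 and 77.5 at 8 h, and 53.4, 51.3 and 45.8 at 24 h. Both treatments had lower libraries at later times, and FGF6 was above vehicle at each. Atg16l1 rose 1.58-fold at 4 h, 1.65-fold at 8 h, and 1.45-fold at 24 h. As log2 values the rises were 0.66 (SE 0.0515, adjusted p = 2.87e-11), 0.72 (SE 0.0528, adjusted p = 5.88e-12), and 0.54 (SE 0.0558, adjusted p = 3.48e-09). In vehicle alone it fell, with -0.32 (SE 0.0532, adjusted p = 1.98e-05) from 4 to 8 h and -0.40 (SE 0.0557, adjusted p = 1.71e-06) from 8 to 24 h.

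ATG4 proteases trim ATG8 proteins before conjugation and release them from membranes afterward, and their 3 genes gave 3 patterns. Atg4a was lower at all times, Atg4b was not called at any, and Atg4c was lower at 4 h (-0.21) and 8 h (-0.18) and higher at 24 h (0.40), the 24 and 4 h effects differing by 0.61 (SE 0.104, adjusted p = 1.93e-05) in edgeR's test. The vehicle libraries had 6.29, 5.59 and 5.61 CPM of Atg4a at 4 h, 8.74, 7.88 and 8.46 at 8 h, and 8.23, 10.01 and 9.63 at 24 h. The FGF6 libraries had 3.48, 3.63 and 4.27 CPM, 5.31, 4.54 and 4.48, and 5.40, 4.86 and 4.92. All FGF6 libraries of Atg4a were below all vehicle libraries, at low levels throughout. For Atg4a the log2 fold change was -0.63 (SE 0.115, adjusted p = 3.93e-05) at 4 h, -0.80 (SE 0.105, adjusted p = 2.32e-07) at 8 h, and -0.88 (SE 0.105, adjusted p = 3.89e-08) at 24 h.

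Atg4b, the protease with the broadest known activity, had 52.6, 55.4 and 53.7 CPM in vehicle at 4 h, 54.1, 56.4 and 51.1 at 8 h, and 53.4, 54.9 and 51.8 at 24 h. With FGF6 the values were 51.3, 54.9 and 56.3 CPM, 52.1, 54.2 and 48.5, and 53.7, 56.4 and 51.7. The ranges of the groups overlapped at every time. Relative to vehicle, its log2 fold change was 0.01 (SE 0.0494, adjusted p = 0.913) at 4 h, -0.06 (SE 0.0495, adjusted p = 0.281) at 8 h, and 0.01 (SE 0.0497, adjusted p = 0.808) at 24 h.

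The ATG8 family coats the autophagosome and binds receptors. Per kilobase of exonic sequence, Gabarap had the highest level of its 5 genes in every group (298.9 ± 8.17 CPM per kb in vehicle at 24 h, SD, n = 3) and Gabarapl2 the lowest (3.05 ± 0.245). Between them in that group were Map1lc3a (71.5 ± 0.116), Gabarapl1 (57.4 ± 1.78), and Map1lc3b (15.9 ± 0.223). The order was the same in the other groups, except that with FGF6 at 24 h Map1lc3a (39.7 ± 3.49 CPM per kb) and Gabarapl1 (37.0 ± 1.7) differed by less than their spread. This order depends on the length used, which counts all annotated exons, 7517 bases for Map1lc3b and 1181 for Map1lc3a. In CPM without that length, Map1lc3b was above Map1lc3a in vehicle at 24 h. Calls with FGF6 were 3 lower at 4 h, 4 lower and 1 higher at 8 h, and 4 lower and 1 higher at 24 h, beside 34.2%, 38.4%, and 37.9% lower and 28.6%, 32.4%, and 35.9% higher of all genes. All 4 lower genes passed 1.5-fold at 24 h (all genes, 23.0%).

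**Figure D3:**
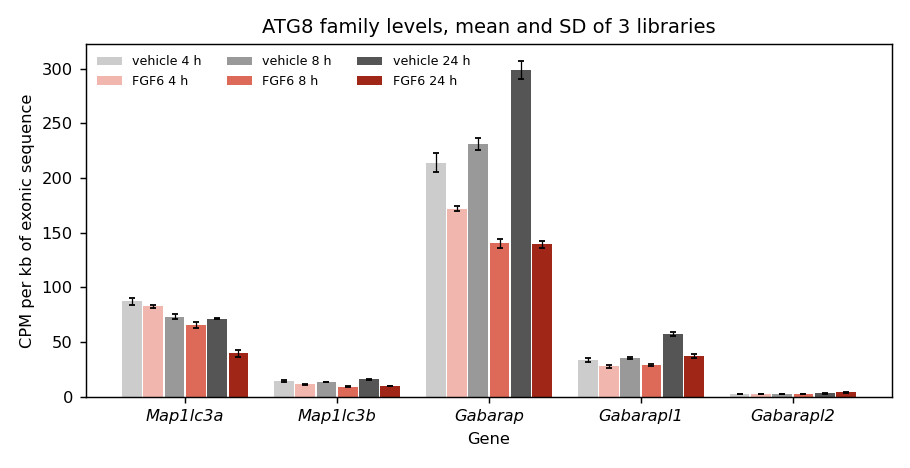
Level of each ATG8 family gene in CPM per kb of exonic sequence (vertical axis, bars for means and error bars for the SD of 3 libraries) in the 6 groups, grey for vehicle and red for FGF6 with darker shades at later times. Gabarap is the tallest in every group and falls from 298.9 in vehicle to 139.2 with FGF6 at 24 h, and Gabarapl2 stays at or below 4.20.

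Gabarap (ENSMUSG00000018567, chromosome 11, 69991143 to 69994951) had 383.9, 387.6 and 412.4 CPM in vehicle at 4 h, 420.3, 420.3 and 438.3 at 8 h, and 533.8, 560.3 and 559.4 at 24 h. FGF6 libraries had 313.1, 315.1 and 321.4 CPM at 4 h, 267.7, 253.4 and 255.5 at 8 h, and 250.04, 258.1 and 261.8 at 24 h. The vehicle libraries were highest at 24 h and the FGF6 libraries were lowest at 8 and 24 h, with no overlap between treatments at any time. FGF6 against vehicle gave a log2 value of -0.32 (SE 0.0342, adjusted p = 1.08e-08) at 4 h, -0.72 (SE 0.0343, adjusted p = 9.8e-16) at 8 h, and -1.10 (SE 0.0345, adjusted p = 1.07e-19) at 24 h, so that Gabarap was 2.15-fold lower at 24 h. The effect differed between 8 and 4 h by -0.40 (SE 0.0483, adjusted p = 6.31e-07) and between 24 and 8 h by -0.38 (SE 0.0484, adjusted p = 4.13e-07).

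Map1lc3a, which encodes LC3A, was at 106.7, 99.6 and 102.6 CPM in vehicle at 4 h, 86.4, 89.0 and 84.5 at 8 h, and 84.6, 84.3 and 84.4 at 24 h. With FGF6 it was at 96.6, 99.9 and 96.1 CPM, 79.2, 79.6 and 73.8, and 44.8, 44.3 and 51.6. At 4 h 1 FGF6 library reached into the vehicle range, and at 24 h the FGF6 libraries were far below it. The log2 fold change was -0.08 (SE 0.0445, adjusted p = 0.131) at 4 h, not called, -0.16 (SE 0.0454, adjusted p = 0.00323) at 8 h, and -0.85 (SE 0.0475, adjusted p = 1.81e-14) at 24 h. With library sizes alone the 4 h value was -0.18 (adjusted p = 0.00115), and without the lowest FGF6 library at 8 h the 8 h value was -0.08 (adjusted p = 0.154). The effects at 24 and 4 h differed by -0.77 (SE 0.0651, adjusted p = 2.39e-10).

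Map1lc3b, which encodes LC3B, the usual marker of autophagosomes, had 104.1, 109.2 and 115.9 CPM in vehicle at 4 h, 98.3, 100.2 and 101.8 at 8 h, and 120.4, 117.3 and 119.9 at 24 h. Its FGF6 values were 84.4, 86.0 and 89.2 CPM, 73.1, 70.2 and 68.5, and 72.5, 76.8 and 73.6. All FGF6 libraries were below all vehicle libraries. Map1lc3b fell, with log2 values of -0.34 (SE 0.0383, adjusted p = 2.07e-08) at 4 h, -0.50 (SE 0.0389, adjusted p = 1.63e-11) at 8 h, and -0.68 (SE 0.0387, adjusted p = 2.45e-14) at 24 h, and the effects at 24 and 4 h differed by -0.34 (SE 0.0544, adjusted p = 9.54e-06).

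Gabarapl1 was at 65.5, 65.2 and 71.7 CPM in vehicle at 4 h, 70.8, 74.1 and 69.7 at 8 h, and 111.9, 115.5 and 119.0 at 24 h. FGF6 libraries held 58.8, 55.1 and 53.9 CPM, 57.6, 60.2 and 57.3, and 70.7, 77.1 and 76.0. FGF6 was lower at each time without overlap, and vehicle at 24 h stood above all other groups. On the log2 scale the effect was -0.27 (SE 0.0464, adjusted p = 1.56e-05) at 4 h, -0.29 (SE 0.046, adjusted p = 3.42e-06) at 8 h, and -0.63 (SE 0.0446, adjusted p = 2.14e-12) at 24 h, while vehicle alone rose from 8 to 24 h by 0.69 (SE 0.0445, adjusted p = 3.41e-12). Of its 2013 exonic bases, 570 overlap a gene on the opposite strand. Gabarapl2 (GATE-16) was the family's exception, with log2 fold changes of 0.19 at 4 h, not called, 0.23 (SE 0.102, adjusted p = 0.0462) at 8 h, and 0.47 (SE 0.0951, adjusted p = 9.76e-05) at 24 h, at levels between 5.07 and 10.5 CPM.

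Autophagy receptors link cargo to ATG8 proteins. Lower calls numbered 5 of 6 at 4 h and 6 of 6 at 8 h, beside 34.2% and 38.4% of all genes. At 24 h 3 were lower and 3 higher (all genes, 37.9% and 35.9%). The ubiquitin-binding receptor Nbr1 was lower at each time, with log2 fold changes of -0.47, -0.53, and -0.13, the last not called without replicate 3 of vehicle at 24 h. Tax1bp1, another ubiquitin-binding receptor, had -0.06 at 4 h, not called, -0.25 at 8 h, and 0.10 at 24 h. The 24 h effect was above the 4 h effect in Nbr1, by 0.34 (SE 0.0485, adjusted p = 1.59e-06), and in Tax1bp1, by 0.16 (SE 0.0508, adjusted p = 0.0108), in edgeR's test.

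Optn (ENSMUSG00000026672, chromosome 2, 5020642 to 5064051), or optineurin, a receptor for ubiquitinated mitochondria and bacteria, had 25.9, 26.6 and 25.9 CPM in vehicle at 4 h, 26.8, 26.6 and 27.4 at 8 h, and 34.8, 35.3 and 42.1 at 24 h. With FGF6 it had 15.9, 14.7 and 14.7 CPM at 4 h, 11.6, 9.55 and 11.2 at 8 h, and 12.5, 10.8 and 12.6 at 24 h. All 9 FGF6 libraries were far below all 9 vehicle libraries, and 1 vehicle library at 24 h was above the other two. Relative to vehicle, its log2 fold change was -0.79 (SE 0.0749, adjusted p = 1.12e-09) at 4 h, -1.33 (SE 0.0783, adjusted p = 7.6e-14) at 8 h, and -1.64 (SE 0.0757, adjusted p = 3.55e-16) at 24 h, a 1.73-fold, 2.51-fold, and 3.12-fold fall. It was the most negative value of the 37 genes at 4 and 24 h. The effect differed between 24 and 4 h by -0.85 (SE 0.108, adjusted p = 2.75e-07), and without replicate 3 of vehicle at 24 h, the library that stood apart, the 24 h value was -1.51 and this difference -0.74 (adjusted p = 4.7e-07).

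Sqstm1, which encodes the receptor p62, had 587.1, 591.5 and 601.2 CPM in vehicle at 4 h, 388.9, 379.6 and 375.5 at 8 h, and 664.5, 699.6 and 676.1 at 24 h. FGF6 libraries had 541.5, 538.0 and 507.0 CPM, 335.1, 330.0 and 332.9, and 430.2, 455.8 and 461.1. Both treatments were lowest at 8 h, and FGF6 was below vehicle at each time. FGF6 against vehicle gave a log2 value of -0.17 (SE 0.0322, adjusted p = 7.65e-05) at 4 h, -0.20 (SE 0.0324, adjusted p = 6.77e-06) at 8 h, and -0.60 (SE 0.0323, adjusted p = 8.36e-15) at 24 h. In vehicle alone it fell and then rose with time, with -0.64 (SE 0.0323, adjusted p = 5.03e-14) from 4 to 8 h and 0.83 (SE 0.0324, adjusted p = 2.31e-16) from 8 to 24 h. A gene on the opposite strand, Mrnip, overlaps 580 of its 3356 exonic bases.

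Bnip3 (ENSMUSG00000078566, chromosome 7, 138890836 to 138909519), a mitophagy receptor of the outer mitochondrial membrane, had 33.8, 31.4 and 36.8 CPM in vehicle at 4 h, 36.4, 33.0 and 36.1 at 8 h, and 49.8, 50.5 and 50.5 at 24 h. Its FGF6 libraries had 21.7, 23.2 and 22.0 CPM at 4 h, 15.9, 13.7 and 11.9 at 8 h, and 75.4, 69.0 and 69.2 at 24 h. FGF6 was below vehicle at 4 and 8 h and above it at 24 h, with no overlap at any time. The log2 fold change was -0.60 (SE 0.0706, adjusted p = 4.46e-08) at 4 h and -1.34 (SE 0.0748, adjusted p = 2.58e-14) at 8 h, 2.52-fold lower, and then 0.50 (SE 0.0621, adjusted p = 7.07e-08) at 24 h, 1.42-fold higher. The effects at 24 and 8 h differed by 1.84 (SE 0.0974, adjusted p = 5.48e-14), and those at 8 and 4 h by -0.73 (SE 0.104, adjusted p = 6.17e-06). Gm45507 on the opposite strand overlaps 504 of its 2265 exonic bases.

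Bnip3l, or Nix, the paralog of Bnip3 and also a mitophagy receptor, had 47.5, 49.7 and 54.4 CPM in vehicle at 4 h, 55.0, 61.3 and 61.5 at 8 h, and 81.3, 90.1 and 87.7 at 24 h. With FGF6 the values were 35.6, 32.7 and 35.5 CPM, 38.3, 35.6 and 37.4, and 107.3, 93.1 and 99.5. The order of the treatments was the same as for Bnip3 at all 3 times, without overlap. Bnip3l had log2 fold changes of -0.55 (SE 0.0621, adjusted p = 2.66e-08) at 4 h, -0.68 (SE 0.061, adjusted p = 3.13e-10) at 8 h, and 0.21 (SE 0.0563, adjusted p = 0.0017) at 24 h, and the effects at 24 and 8 h differed by 0.89 (SE 0.083, adjusted p = 2.8e-09). It shares no exonic bases with another gene.

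**Figure D4:**
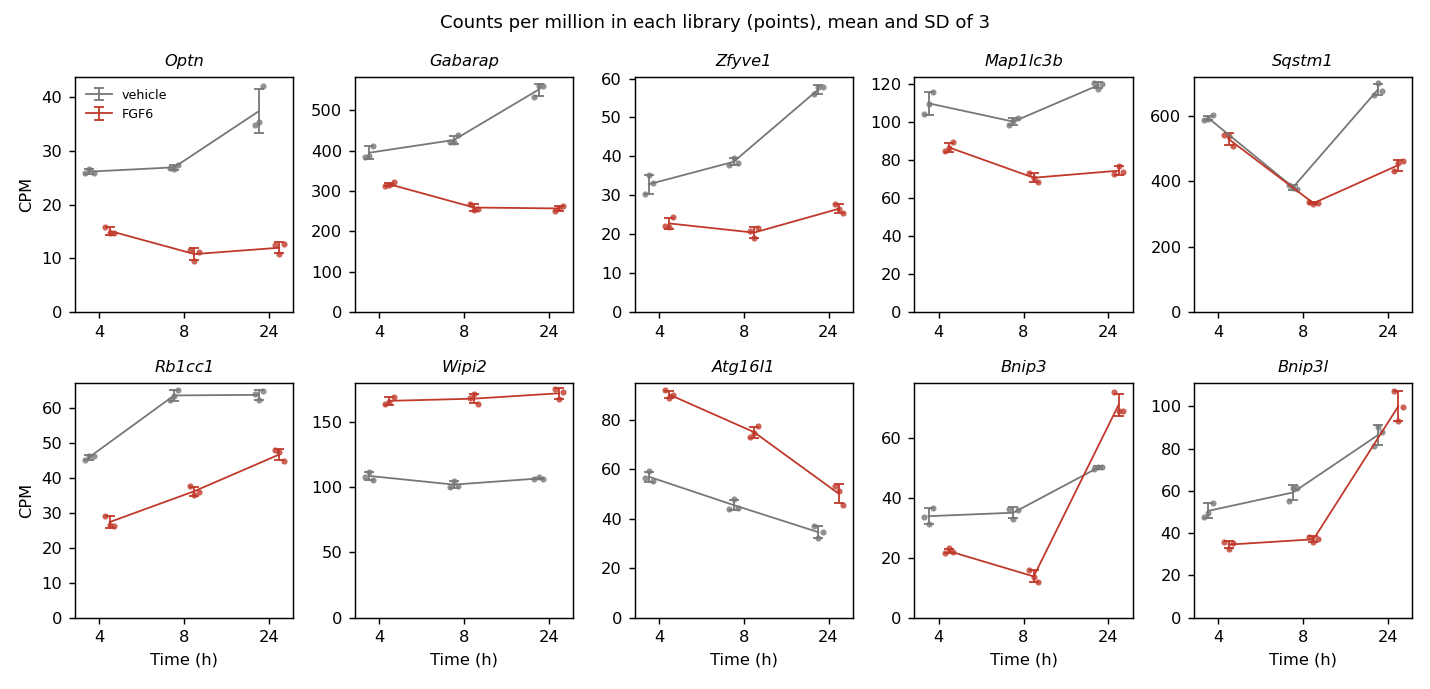
CPM (vertical axes, from 0) in each library (points) at 4, 8, and 24 h for 10 of the autophagy genes, with lines through the means and error bars for the SD of 3 libraries, grey for vehicle and red for FGF6. Red lies below grey for Optn, Gabarap, Zfyve1, Map1lc3b, Sqstm1, and Rb1cc1 at each time and above it for Wipi2 and Atg16l1, and it crosses grey between 8 and 24 h for Bnip3 and Bnip3l.

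The size of the FGF6 effect was also compared between times. Between 8 and 4 h it differed in 11 of the 37 genes (all genes, 30.6%), always toward a lower value (all genes, 15.1%). Between 24 and 8 h it differed in 21 (all genes, 45.1%), 10 toward higher and 11 toward lower (all genes, 22.6% and 22.5%), and without replicate 3 of vehicle at 24 h in 20, with Optn lost (-0.23, adjusted p = 0.0724 in edgeR's test). Between 24 and 4 h it differed in 24 (all genes, 53.5%), 10 toward higher and 14 toward lower (all genes, 28.3% and 25.2%), and without that library in 25, with Gabarapl2 gained (0.35, adjusted p = 0.0466). From 4 to 24 h the effect became higher in 4 of 5 genes of the ULK complex and lower in 4 of 5 genes of the ATG8 family. These comparisons share libraries with each other and with those of FGF6 against vehicle at each time.

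In vehicle-treated cells the same genes moved with time in culture, and these are the libraries that FGF6 was set against. From 4 to 8 h, 19 of the 37 genes changed (all genes, 43.0%), 13 higher and 6 lower (all genes, 21.2% and 21.7%). From 8 to 24 h, 24 changed (all genes, 49.2%), 21 higher and 3 lower (all genes, 25.5% and 23.7%), and these 24 calls were the same without replicate 3 of vehicle at 24 h. The largest of the later changes were in Sqstm1 (0.83), Gabarapl1 (0.69), Uvrag (0.64), and Wipi1 (0.61) on the log2 scale. The 3 that fell from 8 to 24 h were Atg16l1 (-0.40), Atg4c (-0.48), and Atg5 (-0.19), which were also 3 of the 8 genes called higher with FGF6 at 24 h. Both comparisons use the vehicle libraries at 24 h.

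Further genes of the pathway were counted from lists of names. Of 20 further autophagy genes, 19 were tested, with 6 higher and 8 lower at 4 h, 5 higher and 11 lower at 8 h, and 5 higher and 11 lower at 24 h, beside 28.6%, 32.4%, and 35.9% higher and 34.2%, 38.4%, and 37.9% lower of all genes. Trp53inp1 and Trp53inp2, which bind ATG8 proteins and take part in autophagosome formation, both fell at each time. Trp53inp1 had 131.5, 143.2 and 147.8 CPM in vehicle and 19.6, 18.1 and 17.4 with FGF6 at 24 h, far apart, with log2 fold changes of -2.43 at 4 h, -2.61 at 8 h, and -2.94 (SE 0.0614, adjusted p = 2.55e-23) at 24 h. Trp53inp2 had 131.4, 144.4 and 146.1 and 36.9, 36.0 and 41.2 CPM at 24 h, with -0.73, -1.31, and -1.89 (SE 0.064, adjusted p = 5.65e-19). Atg16l2, the paralog of Atg16l1, fell at each time, with log2 values of -1.04, -1.25, and -1.08 (SE 0.083, adjusted p = 1.02e-11), and so went opposite to Atg16l1. Atg9b, the paralog of Atg9a, rose at each time, with 0.64, 0.64, and 1.92 (SE 0.156, adjusted p = 3.29e-11), opposite to Atg9a, at no more than 5.54 CPM and with exons that overlap Nos3.

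Of 14 further receptors, 12 were tested, with 1 higher and 7 lower at 4 h, 1 higher and 9 lower at 8 h, and 1 higher and 8 lower at 24 h, beside 28.6%, 32.4%, and 35.9% higher and 34.2%, 38.4%, and 37.9% lower of all genes. Calcoco1, a receptor for the endoplasmic reticulum, fell by 2.02-fold at 8 h and 2.13-fold at 24 h, where its log2 fold change was -1.09 (SE 0.059, adjusted p = 9e-15) in edgeR's test. Pink1, the kinase that marks damaged mitochondria for mitophagy, had -0.60, -0.95, and -1.16 (SE 0.066, adjusted p = 2.41e-14), lower at each time.

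Among 19 genes of mTORC1 and AMPK, the nutrient and energy kinases that inhibit and activate the ULK complex, 3 were higher and 11 lower at 4 h, 6 higher and 9 lower at 8 h, and 5 higher and 6 lower at 24 h. The 14, 15, and 11 called stand beside 62.8%, 70.8%, and 73.8% of all genes. Of all genes, 28.6%, 32.4%, and 35.9% were higher and 34.2%, 38.4%, and 37.9% lower. Deptor, an inhibitor of mTOR, had 135.3, 140.8 and 149.5 CPM in vehicle and 26.4, 27.0 and 25.8 with FGF6 at 24 h, with log2 fold changes of -1.99, -1.75, and -2.43 (SE 0.0436, adjusted p = 1.34e-24). The sestrins Sesn1 and Sesn2, which restrain mTORC1, were lower at all times, with -1.77 (SE 0.0595, adjusted p = 4.55e-19) and -1.14 (SE 0.0555, adjusted p = 1.06e-15) at 24 h. Ddit4, another inhibitor of mTORC1, had -0.72 at 4 h, -1.38 at 8 h, and 0.29 (SE 0.0571, adjusted p = 7.24e-05) at 24 h, lower and then higher as Bnip3 and Bnip3l were. Prkaa2, an AMPK catalytic subunit, rose at 8 h, with 0.58, and at 24 h, with 1.48 (SE 0.128, adjusted p = 1.17e-10), at no more than 10.2 CPM.

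Of 9 transcription factors known to act on autophagy genes, 2 were higher and 4 lower at 4 h, and 4 were higher and 4 lower at 8 and at 24 h. Of all genes, 62.8%, 70.8%, and 73.8% were called, with 28.6%, 32.4%, and 35.9% higher and 34.2%, 38.4%, and 37.9% lower. Foxo1 was lower at each time, with -1.12 at 8 h and -1.15 (SE 0.0695, adjusted p = 8.3e-14) at 24 h, and Foxo3 was lower with -0.37, -0.76, and -1.10 (SE 0.0427, adjusted p = 8.65e-18). Tfeb, Tfe3, and Hif1a did not reach 2-fold and were named after their values were seen. Tfeb had -0.90 at 24 h, lower, while the related Tfe3 had 0.32, higher. Hif1a was lower at 8 h (-0.74) and had 0.03 at 24 h, not called.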

How the data were processed

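RNA-seq of immortalized murine brown preadipocytes given vehicle or FGF6 was analysed, with groups and times taken from the sample labels and all 18 libraries used. Per the labels and the study's methods, reads had been mapped by STAR to GRCm38 and assigned to genes by featureCounts of the Subread package, and the deposited values are the authors' raw counts, not normalized. Versions, strand setting, and the treatment of multiply mapped reads are not given in the sources used here.

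GENCODE M21 symbols matched 98.3% of the 48023 gene identifiers. In R 4.3.3, edgeR 4.0.16 kept 15071 genes (filterByExpr with the 6 groups), computed TMM factors (0.951 to 1.047), and estimated a mean for each of the 6 groups in a quasi-likelihood fit that had no covariates. The contrasts were FGF6 minus vehicle within each time point, effects were compared between times by interaction, and vehicle was compared between times. P-values were adjusted over all genes by the Benjamini-Hochberg method, with a threshold of 0.05. The study used limma-voom and 0.25, which were tried as alternatives. CPM is the count over the TMM-scaled total of genes kept, and the filter and the scaling are the steps that could change it. Library totals ran from 24327816 to 33471980, and the common biological coefficient of variation was 0.0458. Within each group, libraries differed by more than sampling noise (chi-square per degree of freedom at least 2.37), and replicate 3 of vehicle at 24 h stood apart from its group (35.7 and 39.2, all other pairs at most 7.35). The calls and median of the autophagy genes at 24 h, and the comparisons between times that use this library, are also given without it. Given only with it are the counts by role and with at least 1.5-fold, and the overlaps of libraries. The same holds for the markers, the further lists, and most values of single genes at 24 h.

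The genes and lists were chosen with earlier results of these data known. Values in every library are given for genes called with at least 1.5-fold at any time and for a fixed gene of each role (24 genes in all), and genes of the further lists are named if called with at least 2-fold. Other alternatives were DESeq2 1.42.0, limma 3.58.1, library sizes alone, upper-quartile factors, no low-count filter, at least 10 counts in every library, the libraries of a time point alone, the replicate number as a block, a fold of at least 1.5, and leaving out each library. Leaving out genes that share exonic bases was added after the data were seen. Replicate numbers marked no stated pairing. The deviations of same-numbered libraries correlated between -0.252 and 0.219 for FGF6 against vehicle at the same time, which were not treated as pairs, and between -0.405 and 0.563 over all pairs. In vehicle, all 3 correlations were above 0.1 for 4 against 8 h (0.563, 0.144, and 0.41) and for 8 against 24 h (0.247, 0.136, and 0.128). The vehicle results come from the main fit, which took no account of this, and the block is given as an alternative. Tested on simulated counts of the 24 h comparison with 200 changed genes, the method recovered 190 with 8 false calls among 14626 genes. There all other genes had equal means in every group, and every gene had the common coefficient of variation. In the data 73.8% of genes were called at 24 h, so the simulation does not give the rate of false calls in them.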

Additional observations from a re-analysis of the deposited data

Results flagged for a closer look

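The effect of FGF6 differed between 24 and 4 h in 17 of the genes whose libraries are given, by the interaction term of edgeR's quasi-likelihood fit with an adjusted p under 0.05 over all genes. Each value here is the log2 effect at 24 h minus that at 4 h. In the ULK complex the lowering was smaller at 24 h, with 0.30 for Rb1cc1, 0.37 for Ulk1, 0.30 for Ulk2, and 0.17 for Atg13 (adjusted p = 0.0306). In the PI3K complex it was larger at 24 h, with -0.20 for Becn1 and -0.42 for Atg14, and it was larger for Zfyve1 (-0.57).

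Of the conjugation enzymes, Atg3 had -0.69 and Atg5 had 0.34. All 4 of the ATG8 genes with such a difference were lower at 24 h relative to 4 h, with -0.77 for Map1lc3a, -0.34 for Map1lc3b, -0.78 for Gabarap, and -0.36 for Gabarapl1. The receptors separated into Sqstm1 (-0.43) and Optn (-0.85) on one side and Bnip3 (1.11) and Bnip3l (0.76) on the other.

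Bnip3 was also picked out because its effects at 24 and 8 h differed by at least 2-fold, with 1.84 (SE 0.0974, adjusted p = 5.48e-14 in edgeR's test). Each of its FGF6 libraries was below vehicle at 8 h and above it at 24 h. The same order held for Bnip3l, whose difference of 0.89 did not reach 2-fold. Of the 24 genes whose libraries are given, 20 had been chosen for a called effect of at least 1.5-fold in these data. How many of them differed between times therefore cannot be compared with the share of all genes. Of all 37 autophagy genes tested, 24 had an effect that differed between 24 and 4 h, beside 53.5% of all genes tested. Without replicate 3 of vehicle at 24 h, which stood apart from its group, each of these 18 differences kept its direction and its call, with -0.74 for Optn, 0.41 for Atg5, and 1.84 for Bnip3 between 24 and 8 h.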

How the results depend on the processing

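Under the alternatives for the 24 genes described by library, 1844 of 1872 values kept their side of the threshold, and their direction where called. Of the rest, 24 lost the call, 3 gained it, and 1 reversed: Atg3 at 4 h was -0.09 (adjusted p = 0.0406) with library sizes alone, in place of 0.01. A change of sign without a call in either fit was not counted, as for Becn1 at 4 h (-0.07 to 0.08). Library sizes alone also moved the median of all genes at 4 h from -0.05 to -0.15 and the calls from 4308 higher and 5152 lower to 3242 and 6495. The medians of the autophagy genes then became -0.34 at 4 h and -0.36 at 8 h. Of the 26 alternatives behind the 1872 values, 18 left out 1 library, most often from a group outside the comparison. Most of the 24 genes had also been chosen for a called effect of at least 1.5-fold. The 1844 values therefore do not give how often calls hold for genes in general.

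At a threshold of 0.25, 4 genes were higher at 4 h in place of 2. With at least 1.5-fold, 8 genes were called at 4 h (6 lower), 13 at 8 h (2 higher, 11 lower), and 14 at 24 h (1 higher, 13 lower). The effects then differed in 1 gene for 8 against 4 h, in 4 genes for 24 against 8 h, and in 7 genes for 24 against 4 h. Of all 15071 genes tested, 398, 816, and 1280 then differed toward higher and 737, 1567, and 2075 toward lower. Vehicle alone gave 2 and 4 of the 37 autophagy genes, beside 371 and 937 higher and 682 and 691 lower of all genes. Among the genes that share no exonic bases, 15 were called at 4 h (13 lower), 21 at 8 h (17 lower), and 21 at 24 h (15 lower), from 24 tested.

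Leaving out each library in turn gave 23 to 26 calls at 4 h (2 to 3 higher, 20 to 23 lower), 28 to 33 at 8 h (3 to 4 higher, 25 to 29 lower), and 31 to 34 at 24 h (8 to 9 higher, 23 to 26 lower). Differences of effect numbered 8 to 12, 20 to 24, and 23 to 25, and changes in vehicle 16 to 21 and 23 to 24. The median at 24 h then ranged from -0.41 to -0.33, with -0.34 without replicate 3 of vehicle at 24 h. With the replicate number as a block, calls were 25 at 4 h, 32 at 8 h, and 34 at 24 h, and no pairing is stated in the labels. In vehicle, where same-numbered libraries correlated positively, the block gave 20 changes from 4 to 8 h and 24 from 8 to 24 h, beside 19 and 24 in the main fit. Genes at a few CPM (Atg10, Atg4a, and Gabarapl2) had the largest standard errors. The causes of these shifts were not tested, other than the smaller number of genes or libraries that an alternative uses.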

Other observations

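Several genes that act in autophagy were listed with few or no counts in all 18 libraries, and whether this reflects the cells or the annotation and counting behind the table could not be settled from the files. Atg2a had none. Vamp8, a SNARE of autophagosome-lysosome fusion, was at or below 0.042 CPM. Ccpg1, a receptor for the endoplasmic reticulum, was at or below 0.315 CPM, and its exons overlap those of Pigb and Gm44503. The SNAREs Stx17, Snap29, and Ykt6 were all tested, with log2 fold changes at 24 h of -0.05, not called, -0.20, and -0.12.

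The fusion tethers Vps39 and Vps41 of the HOPS complex and Plekhm1, which binds it, were lower at each time. Vps41 had -0.39 at 4 h, -0.47 at 8 h, and -0.43 at 24 h, and Vps39 had -0.14, -0.24, and -0.27. The membrane scramblase genes Vmp1 and Tmem41b went the other way, with 0.25, 0.19, and 0.43 for Vmp1 and 0.35, 0.00 (not called), and 0.13 for Tmem41b. The kinase Tbk1, which phosphorylates optineurin, was lower at each time (-0.21, -0.36, and -0.40), as Optn was. These genes were named after their values were seen.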
